A study of Mus musculus with 12 samples.

Results

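The miR-23, miR-27 and miR-24 clusters are 2 short stretches of the mouse genome, each of which encodes 1 hairpin of each of the 3 families. The miR-23a/27a/24-2 group is the a cluster and the miR-23b/27b/24-1 group is the b cluster. Their mature products were taken by name from a table of 1929 mouse miRNAs. All 10 named rows, 5 from the 3p side and 5 from the 5p side of their hairpins, were present, and all 10 passed the filter on low counts that kept 607 miRNAs. The livers came from C57BL/6 mice, and both groups carried a liver fibrosis model made by intraperitoneal injection of carbon tetrachloride (CCl4), a toxin that injures hepatocytes. In addition, 6 mice were dosed daily by the intragastric route with Pien Tze Huang (PZH), a compound medicine of traditional Chinese practice, and 6 with double distilled water. The comparison asks what PZH changes in an injured liver, and no liver without CCl4 was analysed here. The sources used here give no dose, duration, age or sex. Whether each library is a separate mouse is not stated outright, so p-values weigh group differences against the spread between libraries. Each library is called a liver below.

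A miRNA hairpin is cut into a duplex of a 5p and a 3p arm, and one arm is usually loaded into an Argonaute protein while the other is degraded. The loaded arm pairs with messenger RNAs through its seed, bases 2 to 8, and represses them. In these clusters the 3p arms are the main products. They are abundant in endothelium and in most other tissues: miR-23 is known to repress glutaminase, miR-27 to repress regulators of fat storage such as PPAR-gamma and of angiogenesis, and miR-24 to repress cell cycle genes. In liver, the b cluster is known for repressing Smads, which carry TGF-beta signals, and miR-27a and miR-27b for a part in the activation of hepatic stellate cells, the source of scar matrix.

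The sequences show which members a short read can tell apart. RefSeq (GRCm38.p6) matched 9 of the 10 members, and capitals mark the seed. The prefix mmu marks mouse and is left out below. The 3p arms come first, followed by the 5p arms that changed or came close to the threshold and their paralogs:
mmu-miR-23a-3p: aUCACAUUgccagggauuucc
mmu-miR-27a-3p: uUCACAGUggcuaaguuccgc
mmu-miR-27b-3p: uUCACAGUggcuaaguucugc
mmu-miR-24-3p: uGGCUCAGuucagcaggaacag
mmu-miR-27a-5p: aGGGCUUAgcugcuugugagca
mmu-miR-27b-5p: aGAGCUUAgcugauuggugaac
mmu-miR-23a-5p: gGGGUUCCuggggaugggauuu
mmu-miR-23b-5p: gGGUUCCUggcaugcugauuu

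The miR-27a-3p and miR-27b-3p sequences had the seed UCACAGU in common and differed at 1 base, C19U (miR-27a base first, counted from the 5′ end). No other miRNA had that seed among the 1647 of the table with a sequence to compare. The miR-27a-5p and miR-27b-5p sequences differed at 8 positions, of which G3A lies in the seed. The miR-24-3p sequence is made from the hairpins of both clusters, so its reads cannot be assigned to either. The miR-24-2-5p arm belongs to the a cluster alone and has the seed UGCCUAC, which miR-24-1-5p of the b cluster also carries. No source used here says how reads that match several miRNAs were counted, so the split between miR-27a-3p and miR-27b-3p is uncertain. The member without a RefSeq match was miR-23b-3p, so its sequence was not compared with that of miR-23a-3p. The split between these paralogs is uncertain too.

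The a cluster spans 404 bases of chromosome 8, chr8:84208518-84208921 on the plus strand of GRCm38. In the GENCODE vM21 annotation it lies between genes, 1756 bases from the protein-coding gene Zswim4, and the last 2 bases of Mir24-2 overlap the lincRNA Gm26532. The b cluster spans 792 bases of chromosome 13, chr13:63300484-63301275 on the plus strand, inside the gene annotated as 2010111I01Rik (Aopep, an aminopeptidase). Mir23b was intronic in 9 of the 9 transcripts that span it, Mir27b in 8 of 9 and Mir24-1 in 7 of 8, and the exception for each of the latter was a nonsense-mediated decay transcript. The Mir27a hairpin, chr8:84208672-84208758, is 87 bases long and is shown because its 5p arm passed the test below and its 3p arm did not. The ratio between these arms did not pass its own test. Capitals mark the 5p and then the 3p arm:
Mir27a: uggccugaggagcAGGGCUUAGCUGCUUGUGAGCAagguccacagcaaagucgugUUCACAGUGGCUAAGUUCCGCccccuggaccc

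Total counts ran from 4961913 to 20211784 per library with water and from 6065480 to 10436478 with PZH. The 10 members took 3.86% ± 0.140 of a water library and 4.0% ± 0.415 of a PZH library (SD, n = 6 each). Levels below are CPM, counts brought to a common library size by TMM scaling, and a count stands for a read assigned to a mature miRNA. How a read that matches several miRNAs was assigned is not stated. Ligation and amplification can favour some sequences, so levels of different miRNAs are ordered only as counted. The hepatocyte markers, miR-122-5p among them, summed to 192590 to 222417 CPM with water and to 175280 to 229373 CPM with PZH, and 0 of these 4 markers passed the test.

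The 5 3p arms made up between 97.4% and 97.9% of the members' counts in each library. With water, miR-27b-3p was the most abundant at 21146 ± 1471 CPM (SD, n = 6), rank 11 of the 1929 miRNAs. It was followed by miR-27a-3p at 7146 ± 213, miR-23a-3p at 4359 ± 110, miR-24-3p at 3236 ± 108, miR-23b-3p at 2332 ± 106 and miR-24-2-5p at 912 ± 74.6 CPM (SD, n = 6 each). The ranges of neighbours in that order did not overlap in either group. The remaining 5p arms were far lower with water, at 23.3 ± 2.01 CPM for miR-27a-5p, 10.5 ± 1.98 for miR-23b-5p, 8.79 ± 1.14 for miR-27b-5p and 5.59 ± 0.766 for miR-23a-5p (SD, n = 6 each). Among these, only the ranges of miR-23b-5p and miR-27b-5p overlapped with water, while with PZH the ranges of every pair of neighbours overlapped. Their counts per library ran from 23 to 517, against 11833 to 400430 for the 3p arms.

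The main products of both clusters did not pass the test. Of the 10 members, 1 was called lower with PZH and 0 higher at an adjusted p under 0.05 (edgeR quasi-likelihood test, Benjamini-Hochberg over 607 miRNAs), and 2 had an unadjusted p under 0.05. Over all tested miRNAs 21.3% were called, 9.88% higher and 11.4% lower, so the members' share was near that background. The members called numbered 0 when no filter was used (5.39% called over all miRNAs), 3 of the 8 still tested with a filter of 10 CPM in 6 libraries (27.3%), and 2 with RLE scaling (21.6%), DESeq2 (23.7%), limma-voom (19.9%) or a replicate block (18.8%). The members' median log2 fold change was -0.0018, with 5 of 10 above 0, beside -0.03 over all miRNAs tested. In whole liver, fewer cells of a type and less RNA per cell cannot be told apart.

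**Figure D1:**
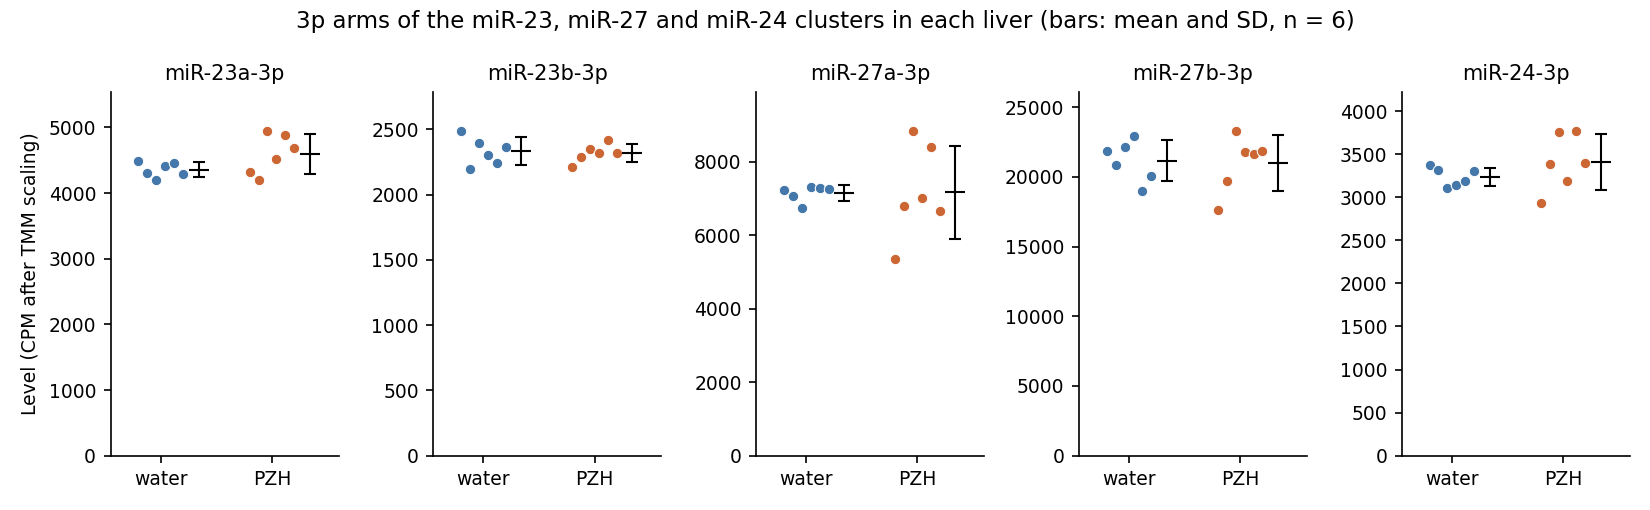
Level (CPM after TMM scaling, axis from 0) of each 3p arm in each liver, water in blue and PZH in orange, with the mean and SD of 6 livers. The groups overlap for all 5 arms, and miR-27a-3p spreads from 5344 to 8837 CPM with PZH but from 6750 to 7302 CPM with water.

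The miR-27a-3p arm had close group means and a wider spread with PZH. With water it ran from 6750 CPM through a median of 7242 to 7302, and with PZH from 5344 through 6904 to 8837. With PZH, 2 livers lay below every water liver and 2 above, and the mean was 7172 ± 1269 CPM (SD, n = 6). The coefficient of variation was 2.98% with water and 17.7% with PZH. Of the 174 miRNAs, members included, whose mean level reached 100 CPM, 134 had a wider coefficient with PZH (medians 9.99% and 12.9%), and 55, miR-27a-3p among them, reached 17.7% there. The coefficient with PZH over that with water was 5.95 for miR-27a-3p, the highest of the 174, beside a median of 1.42. These spreads are a description with no test. The log2 fold change was 0.01 (SE 0.10, adjusted p = 0.971 in edgeR), and its 95% interval ran from -13.3% to 16.2%.

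The miR-27b-3p arm differs from it by 1 base and was about as close between the group means. Its lowest, median and highest levels were 18958, 21354 and 22959 CPM with water and 17607, 21718 and 23300 CPM with PZH. One PZH liver lay below and 1 above the water range. The log2 fold change was -0.01 (SE 0.07, adjusted p = 0.930 in edgeR), with a 95% interval from -11.1% to 10.7%. With the reads of both miR-27 3p arms summed, the log2 fold change was -0.01 (95% interval -0.17 to 0.15). The sum removes the doubt about the split only if each read was given to a single arm.

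Both miR-23 3p arms were narrowly spread. For miR-23a-3p, the lowest, median and highest levels were 4204, 4359 and 4487 CPM with water and 4206, 4610 and 4947 CPM with PZH. With PZH, 4 of 6 livers lay above every water liver, yet the log2 fold change of 0.08 (SE 0.06) did not pass the test (adjusted p = 0.451 in edgeR, 95% interval -3.62% to 15.4%). It was past the threshold only with a stricter filter, 10 CPM in 6 libraries, at an adjusted p of 0.0432 in edgeR. For miR-23b-3p, the levels were 2198, 2332 and 2487 CPM with water and 2213, 2320 and 2418 CPM with PZH. All 6 PZH livers fell inside the water range, and the log2 fold change was -0.01 (SE 0.06, adjusted p = 0.930 in edgeR, 95% interval -8.88% to 8.42%). With the reads of both miR-23 3p arms summed, the log2 fold change was 0.05 (95% interval -0.07 to 0.17).

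The miR-24-3p arm, made by both clusters, ran from 3107 CPM through a median of 3244 to 3369 with water and from 2932 through 3387 to 3770 with PZH. In this case 4 PZH livers lay above the water range and 1 below it. The log2 fold change was 0.07 (SE 0.07, adjusted p = 0.556 in edgeR), with a 95% interval from -5.25% to 16.8%. For none of the 5 3p arms did the interval exclude 0.

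**Figure D2:**
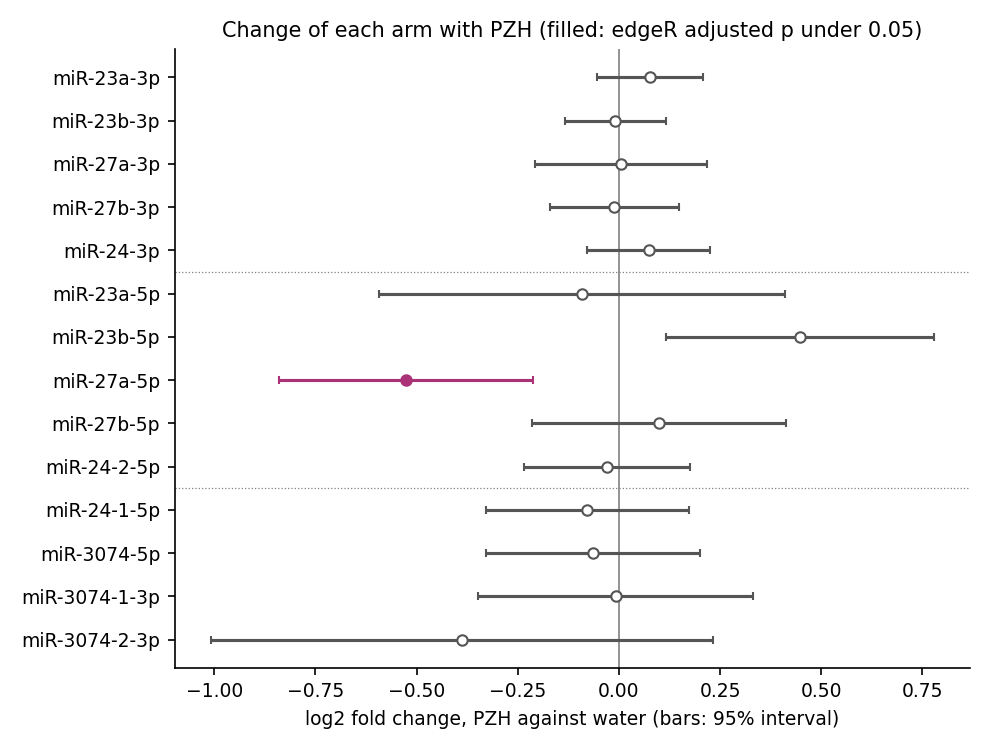
Log2 fold change of PZH against water with its 95% interval for the 3p arms (top), the 5p arms (middle) and other products of the miR-24 loci (bottom), from edgeR. Only miR-27a-5p, at -0.53, is filled for an adjusted p under 0.05, and the 5 3p arms lie between -0.01 and 0.08.

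The member that changed was miR-27a-5p, the minor arm of the Mir27a hairpin shown above. Its lowest, median and highest levels were 21.1, 22.7 and 26.9 CPM with water and 10.2, 17.2 and 19.9 CPM with PZH. All 6 PZH livers lay below every water liver. Over all tested miRNAs, 4.94% had every PZH liver below every water liver. The level fell by 30.5% (95% interval -44.1% to -13.6%), from 23.3 ± 2.01 to 16.2 ± 3.37 CPM (SD, n = 6 each), a log2 fold change of -0.53 (SE 0.15, adjusted p = 0.0180 in edgeR).

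The miR-27a-5p call rests on 98 to 517 counts per library. It held when each library in turn was left out, with log2 fold changes from -0.57 to -0.43, and was lost when no low counts were filtered out (adjusted p = 0.102 in edgeR over 1929 miRNAs). Over its 20 alternatives the adjusted p ran from 0.00687 to 0.102. Markers of other cells moved in the same comparison, in which 11.4% of all tested miRNAs were called lower. Both endothelial markers were lower with PZH, and their sum ran from 12857 to 17087 CPM with water and from 10268 to 13896 CPM with PZH. Of the biliary and epithelial markers 2 of 4 were called lower, with sums from 886 to 2105 and from 817 to 1191 CPM. The upper end came from water liver 2: without it the water sums ended at 1108 CPM, 1 of the 4 was called, and the log2 fold changes of miR-200c-3p and miR-141-3p went from -0.97 and -0.87 to -0.53 and -0.48. Of the leukocyte markers 1 of 5 was called lower, with sums from 4145 to 5970 and from 3089 to 5511 CPM. Neither of the other non-hepatocyte lists held a call: 0 of 5 stellate cell and fibroblast markers (sums from 63412 to 92315 and from 52765 to 92592 CPM) and 0 of 2 erythroid markers (2943 to 4740 and 2428 to 4580 CPM). With 1 library left out, the markers called lower ranged from 1 to 2 (endothelial), 0 to 2 (biliary and epithelial, 0 without PZH liver 1, 2, 3 or 5), 1 to 3 (leukocyte, 3 without PZH liver 3), 0 to 1 (erythroid, 1 without water liver 2) and 0 to 2 (hepatocyte, 2 without PZH liver 6). In these fits the share of all tested miRNAs called lower ran from 7.42% (without PZH liver 5) to 12.7% (without water liver 2). No marker of these lists was at 0 in any library, and their part in the result was not tested.

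**Figure D3:**
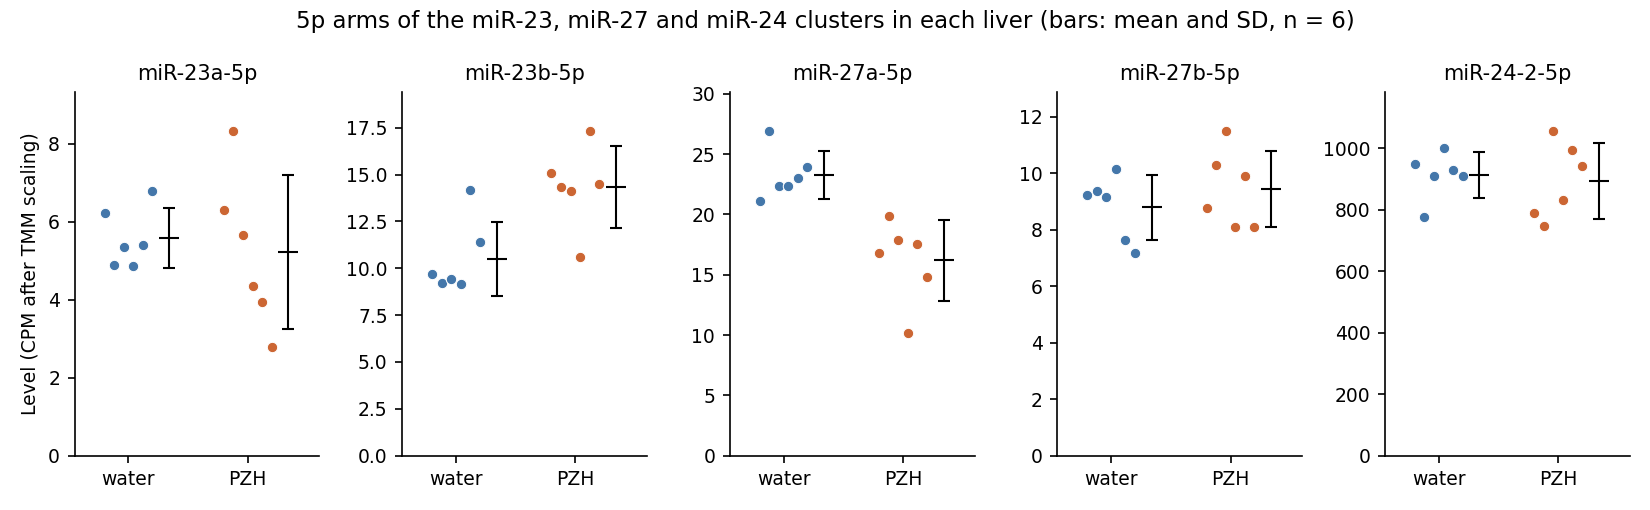
Level (CPM after TMM scaling, axes from 0) of each 5p arm in each liver, water in blue and PZH in orange, with the mean and SD of 6 livers. All 6 PZH values of miR-27a-5p (10.2 to 19.9) lie below the lowest water value (21.1), and 4 of 6 PZH values of miR-23b-5p lie above the highest water value.

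The miR-23b-5p arm came close to the threshold in the opposite direction. Its lowest, median and highest levels were 9.17, 9.57 and 14.2 CPM with water and 10.6, 14.4 and 17.3 CPM with PZH. All 6 PZH livers lay above the water median and 4 above every water liver, while water livers 5 and 6 and PZH livers 3 and 4 lay in the range of the other group. The mean went from 10.5 ± 1.98 to 14.3 ± 2.17 CPM (SD, n = 6 each). The log2 fold change of 0.45 (SE 0.16) had an adjusted p of 0.0528 in edgeR and was not called. It was past the threshold in 7 of 20 alternatives, among them without water replicate 5, without PZH replicate 4 and with DESeq2 (adjusted p = 0.0144). Its counts, 57 to 177 per library, are few, and the adjusted p over the alternatives ran from 0.0144 to 0.159.

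The other 5p arms did not pass the test. The miR-27b-5p arm, which pairs with miR-27b-3p, went from 8.79 ± 1.14 to 9.44 ± 1.36 CPM (SD, n = 6 each; log2 fold change 0.10, SE 0.15, adjusted p = 0.758 in edgeR). The miR-23a-5p arm spread from 4.86 to 6.79 CPM with water and from 2.78 to 8.33 CPM with PZH (log2 fold change -0.09, SE 0.24, adjusted p = 0.879 in edgeR). The miR-24-2-5p arm, the only abundant 5p member, ran from 777 to 1002 CPM with water and from 748 to 1056 CPM with PZH (log2 fold change -0.03, SE 0.10, adjusted p = 0.90 in edgeR). The groups overlapped for each of these 3 arms.

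The ratio of the arms of a hairpin within a library does not depend on library scaling. It was tested with limma over 138 hairpins with both arms counted, of which 7.97% were called, 2.17% lower and 5.80% higher, and 2.17% had groups that did not overlap. Of the 5 member ratios 0 were called and 2 had an unadjusted p under 0.05. For Mir27a the 5p counts per 100 3p counts went from 0.326 ± 0.0309 to 0.231 ± 0.0622 (SD, n = 6 each), a log2 difference of -0.53 (SE 0.17, 95% interval -0.89 to -0.18, adjusted p = 0.0763 in limma). The ratio ran from 0.292 to 0.382 with water and from 0.145 to 0.314 with PZH, so here the groups overlapped through PZH livers 1 and 2.

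For Mir23b, the same ratio went from 0.452 ± 0.0942 to 0.618 ± 0.0896 (SD, n = 6 each), a log2 difference of 0.46 (SE 0.15, adjusted p = 0.0803 in limma). Both ratios passed when only the 81 hairpins with a mean of 100 counts in each arm were tested, at adjusted p of 0.0188 for Mir27a and 0.0235 for Mir23b in limma, and 23.5% of hairpins were called there. Mir27a also passed without PZH replicate 1 (adjusted p = 0.0393 in limma) or PZH replicate 2 (0.0370), and Mir23b without water replicate 5 (0.0315) or PZH replicate 4 (0.0481). Over their 16 alternatives the adjusted p ran from 0.0188 to 0.128 for Mir27a and from 0.0235 to 0.174 for Mir23b. The 5p share was far higher for miR-24-2-5p, at 28.2 ± 2.79 per 100 counts of miR-24-3p in water livers and 26.2 ± 2.18 in PZH livers (SD, n = 6 each; log2 difference -0.10, adjusted p = 0.562 in limma). The miR-24-3p counts in that ratio also come from the b cluster. They may also lack reads counted as miR-3074-5p, an opposite-strand product described below. That row held 2.07 counts per miR-24-3p count with water, so the 5p share may be too high. The lowest shares were those of Mir27b, 0.0415 ± 0.00331 (water) and 0.0452 ± 0.00664 (PZH; SD, n = 6 each; adjusted p = 0.568 in limma).

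**Figure D4:**
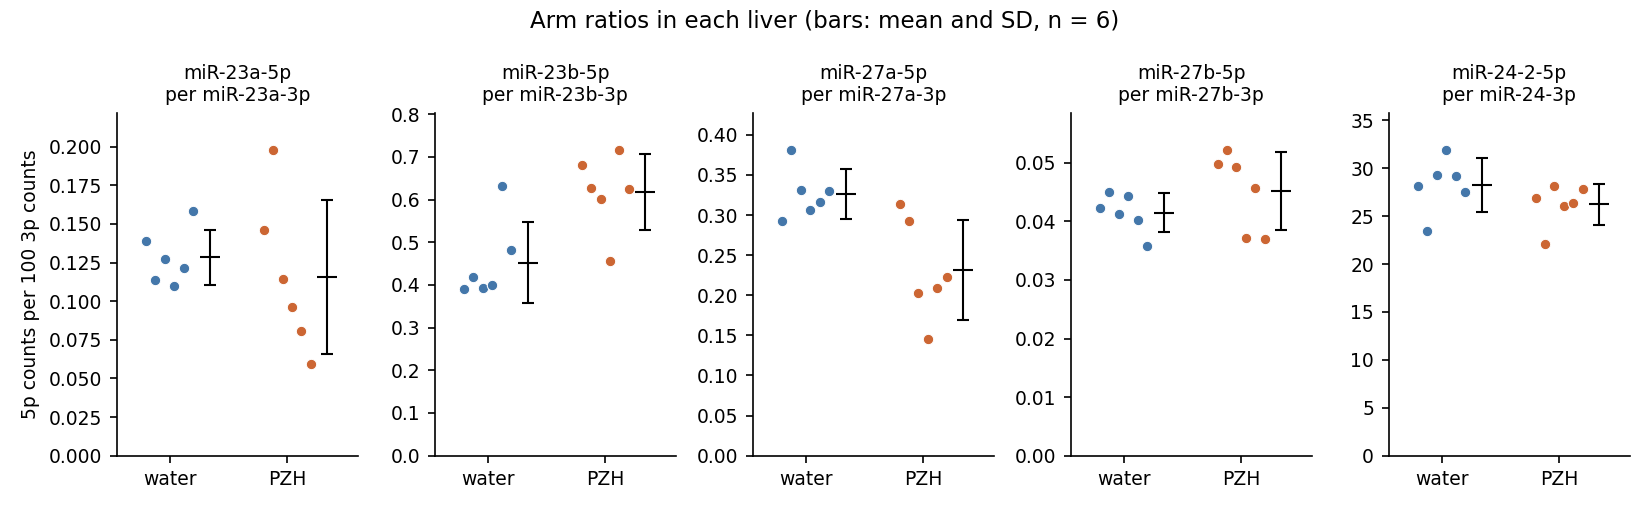
5p counts per 100 3p counts of the same hairpin family (axes from 0) in each liver, water in blue and PZH in orange, with the mean and SD of 6 livers. The miR-27a ratio is 0.326 with water and 0.231 with PZH and the miR-23b ratio 0.452 and 0.618, with overlap between the groups in both.

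Ratios between the 3p arms set the a cluster against the b cluster. Those between paralogs rest on a split of reads that is uncertain. Per count of miR-23b-3p, miR-23a-3p had 1.87 ± 0.0938 counts in water livers and 1.98 ± 0.0899 in PZH livers (SD, n = 6 each), while the order was turned for miR-27, with 0.339 ± 0.0290 and 0.340 ± 0.0369 counts of miR-27a-3p per count of miR-27b-3p. Within the a cluster, miR-27a-3p stood at 1.64 ± 0.0299 times miR-23a-3p with water and 1.55 ± 0.202 times with PZH. Within the b cluster, miR-27b-3p stood at 9.07 ± 0.604 times miR-23b-3p with water and 9.04 ± 0.692 times with PZH. The miR-24-3p counts come from both clusters, so their ratios belong to neither cluster alone. They stood at 0.743 ± 0.0262 (water) and 0.740 ± 0.0463 (PZH) times miR-23a-3p, and at 1.39 ± 0.0716 and 1.47 ± 0.104 times miR-23b-3p. None of these 6 ratios differed between the groups in a two-sided exact permutation test over all assignments of the 12 livers to groups of 6: the lowest p was 0.0649 (adjusted 0.390 over the 6), for miR-23a-3p over miR-23b-3p, a log2 difference of 0.08. The design allows a p as low as 0.00216.

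Each pair of 3p arms had a positive correlation between livers, with r from 0.428 to 0.902. Whether one r differed from another was not tested. Pearson's r was computed for 10 pairs over the 12 libraries, on log2 CPM centred on each group's mean, with permutation p adjusted over the 10. The permutations shuffled livers across both groups, which assumes an equal spread. For miR-27a-3p the coefficient of variation was 2.98% with water and 17.7% with PZH. Where the spread differs like this, r leans on the PZH livers and p may be too small. The highest was that of miR-27a-3p with miR-24-3p (r = 0.902, permutation p = 0.00041, adjusted 0.0041). Spearman's rho for that pair was 0.566 (permutation p = 0.0594, adjusted 0.175), and r was 0.726 without PZH livers 1 and 3, the farthest from the median of miR-27a-3p. The a-cluster pair of miR-23a-3p and miR-27a-3p had r = 0.771 (permutation p = 0.00383, adjusted 0.0191), rho = 0.664 (permutation p = 0.0221, adjusted 0.110), and r = 0.823 without PZH livers 2 and 3. The pair of miR-23a-3p and miR-24-3p had r = 0.709 (permutation p = 0.00942, adjusted 0.0314), rho = 0.706 (permutation p = 0.0121, adjusted 0.110), and r = 0.817 without PZH livers 2 and 3.

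The relation of miR-27a-3p with miR-27b-3p rested on 2 livers: r was 0.665 (permutation p = 0.0191, adjusted 0.0477) and rho 0.322 (permutation p = 0.310, adjusted 0.344), and r was 0.0450 without PZH livers 1 and 3. The remaining 6 pairs had r from 0.428 to 0.585 and adjusted permutation p from 0.0848 to 0.164, the b-cluster pair of miR-23b-3p and miR-27b-3p among them (r = 0.560, rho = 0.517). No rho passed after adjustment. The 4 pairs past the threshold for r became 0 without PZH replicate 3 or without PZH replicate 5, 2 without PZH replicate 1 or without water replicate 1, and 1 with RLE scaling, so which pairs pass depends on single livers and on scaling. Batches are not labelled, so no value within a batch was computed.

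The miRNAs other than the 10 members whose levels were most like those of each 3p arm were found by the same r over 12 libraries, among the 168 whose mean level reached 100 CPM, as a description. For miR-27a-3p they were miR-195a-5p (0.93), miR-142a-5p (0.92) and miR-3074-5p (0.92), which comes from the opposite strand of the miR-24 loci, and for miR-24-3p they were miR-195a-5p (0.93), miR-106b-5p (0.89) and miR-497a-5p (0.84). For miR-23a-3p they were miR-16-5p (0.81), miR-15b-5p (0.79) and miR-15a-5p (0.78). For miR-27b-3p they were miR-322-3p (0.90), miR-125b-2-3p (0.86) and miR-152-3p (0.83). For miR-23b-3p they were miR-6236 (0.79), miR-339-5p (0.78) and miR-126b-3p (0.74). All values of r share the same libraries and the same scaling.

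The miR-24 loci also carry hairpins named Mir3074-1 and Mir3074-2 on the opposite strand. The miR-3074-5p product is the reverse complement of miR-24-3p over 20 of its 22 bases, which capitals mark here:
miR-24-3p: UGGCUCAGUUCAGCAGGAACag
mmu-miR-3074-5p: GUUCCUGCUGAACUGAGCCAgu

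The miR-3074-5p row held about 2 counts for each count of miR-24-3p. Its lowest, median and highest levels were 6099, 6704 and 7372 CPM with water and 4134, 6626 and 8295 CPM with PZH, rank 27 in the table. The log2 fold change was -0.06 (SE 0.12, adjusted p = 0.833 in edgeR). The ratio of miR-3074-5p to miR-24-3p, given with no test, was 2.07 ± 0.147 in water livers and 1.87 ± 0.296 in PZH livers (SD, n = 6 each). PZH liver 1 was the lowest at 1.41, and the PZH mean was 1.96 without it. The split between strands was unlike that of the other opposite-strand pairs, which were looked at after the values were seen. Of 30 pairs overlapping by at least 15 bases, 7 had a summed mean of at least 1000 counts. In 6 of these the lower arm held between 0.310% and 8.04% of the pair's counts on average, whereas miR-24-3p held 33.9% of its pair (29.9% to 41.5% over the 12 libraries). The share of 0.310% was that of miR-3074-2-3p beside miR-24-2-5p, the other arms of the Mir24-2 and Mir3074-2 hairpins.

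No source used here says whether the counting used strand, so reads of miR-24-3p and miR-3074-5p cannot be told apart with certainty. With both summed, the log2 fold change was -0.02 (95% interval -0.23 to 0.20). The 3 other products of these loci were low. The miR-24-1-5p arm of the b cluster had means of 24.8 ± 2.79 CPM (water) and 23.5 ± 2.64 CPM (PZH; SD, n = 6 each), and there were 37.1 ± 4.59 and 38.0 ± 2.67 counts of miR-24-2-5p for each of its counts. None of the 4 was called by edgeR, and 0 had an unadjusted p under 0.05.

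**Figure D5:**
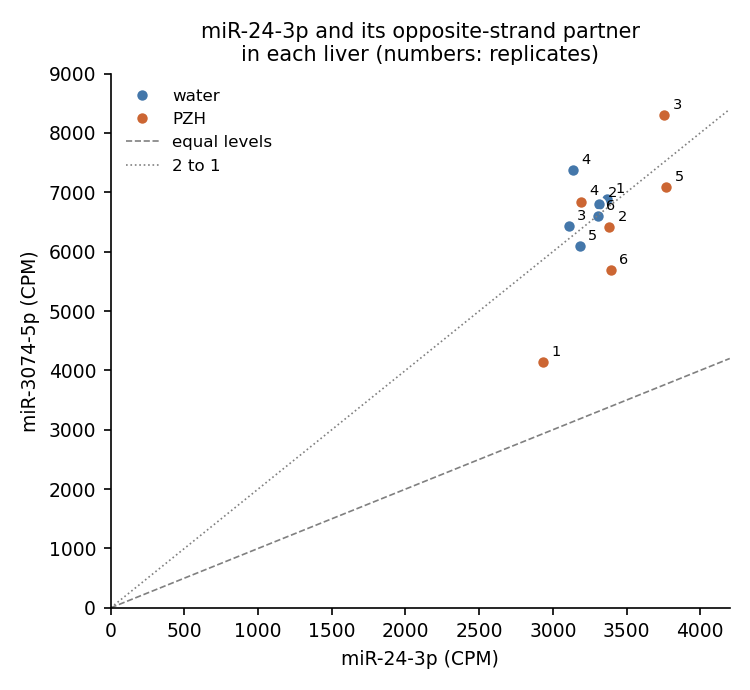
Level of miR-3074-5p against miR-24-3p (CPM after TMM scaling, both axes from 0) in each liver, water in blue and PZH in orange, numbered by replicate, with lines for equal levels and for 2 to 1. All 12 livers lie above the line of equal levels, and PZH liver 1 has the lowest ratio, 1.41.

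Other miRNAs with roles like those known for the clusters were counted from lists in the same edgeR fit. Of 8 endothelial and angiogenic miRNAs, 1 was called higher, miR-221-3p (log2 fold change 0.34, lost in 1 of 20 alternatives), and 2 lower, miR-126a-3p (-0.36), the main endothelial miRNA, and miR-126a-5p (-0.33), with a list median of 0.07. Levels of miR-126a-3p went from 10218 ± 665 to 7971 ± 760 CPM (SD, n = 6 each), and all 6 PZH livers lay below every water liver. The miR-126a-5p call was lost in 16 of 20 alternatives.

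Of 14 lipid and adipogenic miRNAs, 1 was called higher, miR-370-3p (log2 fold change 2.06), and 3 lower, both arms of the miR-378a hairpin (-0.33 for miR-378a-3p, -0.32 for miR-378a-5p) and miR-223-3p (-0.58), with a list median of -0.04. Of these, miR-223-3p is best known as a neutrophil miRNA. Levels of miR-370-3p were low, with means of 3.74 CPM with water and 15.9 CPM with PZH. Its counts ran from 13 to 199 per library. Of 11 miRNAs of TGF-beta signalling and stellate cells, 1 was called higher, miR-221-3p again, and 5 lower, with a list median of -0.01. The lower ones were miR-21a-3p (-0.80), a minor arm of the profibrotic miR-21 hairpin, the collagen-repressing miR-29c-3p (-0.40), miR-29b-3p (-0.32) and miR-29a-3p (-0.21), and miR-30a-5p (-0.31). The main arm of that miR-21 hairpin, miR-21a-5p, was in the same list and was not called (-0.01, adjusted p = 0.923 in edgeR). The calls of miR-378a-5p, miR-29a-3p and miR-29b-3p were lost in 15, 11 and 12 of 20 alternatives, and those of miR-378a-3p and miR-30a-5p in 1 each. The share called over all tested miRNAs, 9.88% higher and 11.4% lower, is the background for each of these counts.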

How the data were processed

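Small RNA was extracted from liver with Trizol and made into libraries with a TruSeq small RNA kit, per the labels. The authors deposited raw counts per mature miRNA, with no normalization. The submitters' processing notes name cutadapt, FastQC, BWA, DESeq2 and GRCm38, with no versions or settings. No cell of the table is 1, and the smallest value above 0 is 2, so low counts may have been removed before deposit. Counts were fitted with edgeR 4.0.16 (quasi-likelihood, TMM, default filter), with calls at an adjusted p under 0.05 (Benjamini-Hochberg over 607 miRNAs). Arm ratios, log2((5p + 1)/(3p + 1)) for hairpins with a mean of at least 20 counts per arm, were fitted with limma 3.58.1. Paralog ratios had exact permutation tests and correlations 100000 permutations. The scripts were tested on simulated data. The 10 members, 4 other products of the loci and called members of each list are named. Members and lists were chosen with earlier results of these data known. Alternatives changed the scaling, filter, pseudocount, tool (DESeq2 1.42.0, limma-voom), block and libraries.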

Additional observations from a re-analysis of the deposited data

Results flagged for a closer look

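In 52 sets of 6 livers, the highest or lowest value was compared with its nearest neighbour, and 1 set had a value that stood apart. The log2 arm ratio of miR-24-2-5p over miR-24-3p was -2.18 in PZH replicate 2, against -1.94 in the next lowest PZH liver. This gap took up 0.681 of the range of the 6 livers, above the critical value of the 95% Dixon test. Chance gives about 1 such value in 20 sets.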

How the results depend on the processing

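The number of members called, 1, became 0 without a filter on low counts, 3 with a filter of 10 CPM in 6 libraries, and 2 with RLE scaling, DESeq2, limma-voom or the replicate block. It ran from 1 to 2 when each library in turn was left out. For the filters the set of miRNAs tested differs, and elsewhere the cause was not tested. No source used here says whether replicate numbers pair the livers. Same-numbered correlations ran from -0.147 to 0.0799, and 1 of the 6 water livers correlated best with its own number. These values describe whole profiles and do not settle whether the livers are paired. The block moved the calls over all miRNAs from 129 to 114. Member arm ratios called went from 0 to 2 with a mean of 100 counts per arm (0 to 1 with a library left out). Correlated pairs went from 4 to 1 with RLE scaling and to 6 with total count scaling (0 to 5 with a library left out). Paralog ratios had 0 calls throughout.

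Small log2 fold changes, none of them called, changed sign. With RLE scaling they were 0.028 for miR-23b-3p, 0.025 for miR-27b-3p, 0.0065 for miR-24-2-5p and 0.028 for miR-3074-1-3p. For the same 4 they were 0.036, 0.033, 0.014 and 0.032 with total count scaling, 0.026, 0.026, 0.0092 and 0.033 without a filter, and 0.028, 0.025, 0.0066 and 0.034 with DESeq2. With 10 CPM in 6 libraries they were 0.079 for miR-23b-3p, 0.075 for miR-27b-3p, 0.057 for miR-24-2-5p, 0.0050 for miR-24-1-5p and 0.024 for miR-3074-5p. For miR-27a-3p the value was -0.0089 with limma-voom and -0.014 with the replicate block. Sums of paralogs are values of the family and of neither arm alone: -0.0069 for the miR-27 3p arms and 0.047 for the miR-23 3p arms. The sum of miR-24-3p and its opposite-strand partner, an alternative chosen after seeing the data, was at -0.018. With a library left out, the ranges were -0.249 to 0.030 for miR-23a-5p, -0.028 to 0.0145 for miR-23b-3p, -0.078 to 0.036 for miR-24-2-5p, -0.060 to 0.077 for miR-27a-3p, -0.040 to 0.034 for miR-27b-3p, -0.150 to 0.036 for miR-3074-5p and -0.081 to 0.063 for miR-3074-1-3p. For log2 ratios they were -0.031 to 0.018 (miR-24-3p/miR-23a-3p), -0.039 to 0.037 (miR-27a-3p/miR-27b-3p) and -0.033 to 0.030 (miR-27b-3p/miR-23b-3p). Depth limits the 5p arms that had 23 to 517 counts per library, all but miR-24-2-5p among the members. The marker lists without each library were also counted after seeing the data.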
